A study of Mus musculus with 4 samples.

Results

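Inhibition in the cerebral cortex is carried by neurons that release GABA, and 8 genes of that system were followed here in mouse visual cortex. They are Gad1 and Gad2, which encode the enzymes that make GABA, Slc32a1, which loads GABA into vesicles, Pvalb, Calb1 and Calb2, which encode the calcium-binding proteins parvalbumin, calbindin and calretinin, and the homeobox genes Dlx1 and Dlx2. The members were all probe sets annotated with 1 of these symbols and no other, which gave 9 of the 12488 probe sets of the array, 2 for Pvalb and 1 for each of the other genes. Of the 9, 8 passed the filter on dim signals and were tested, and Dlx2 did not. The rule uses gene symbols and no measured value, but the 8 genes were chosen with earlier results of these data known.

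GABA is made from glutamate in the cytoplasm and then pumped into vesicles, so a releasing terminal needs both an enzyme of the Gad pair and the vesicular transporter. Parvalbumin, calbindin and calretinin mark largely different kinds of cortical interneuron, and parvalbumin cells in particular are known for their part in the critical period of visual plasticity and for maturing with visual experience. Dlx1 and Dlx2 are transcription factors that direct the birth and migration of forebrain GABA neurons in the embryo, and Dlx1 stays expressed in some adult interneurons.

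The animals were 5 wild-type C57Bl6 mice that lived without light until postnatal day 42, when 1 eye was removed, and then had 4 days of a normal light-dark cycle before they were killed on postnatal day 46. Cortex contralateral to the missing eye is called deprived and cortex on the same side as it non-deprived, so both groups share the dark rearing, the operation and the later light. Tissue was pooled within each side, with 2 arrays per group, and the sources used here do not say how the 5 mice were divided over the arrays. The p-values therefore measure only the spread between these 4 arrays, and their number limits the precision.

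In what follows, 2 signals in a row are those of array 1 and then array 2 of a group. Median signals were 245.7 and 189.9 on the deprived arrays, against 229.6 and 209.6 on the non-deprived arrays. The number of probe sets was the same on each array. Deprived array 1 stood somewhat apart, its log2 signals correlating with those of the other 3 at 0.91 on average, where every other array had 0.93. Integrity of the RNA was read from control probe sets at the 5′ and 3′ ends of 2 transcripts. The 5′ to 3′ ratio of actin was 0.544 and 0.463 in the deprived cortex, against 0.638 and 0.632 in the non-deprived cortex. That of Gapdh was 0.745 and 0.689 on the deprived arrays and 0.875 and 1.07 on the non-deprived arrays, so both ratios were lower on both deprived arrays. The part of this in the results below was not tested. The cortical neuron genes Nrgn, Tbr1 and Neurod2 had lowest signals of 7654, 3331 and 1336 over the 4 arrays, and all 10 of the excitatory-neuron genes found on the array passed the filter.

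No gene of the set passed the threshold in either direction. In limma 0 of the 8 tested probe sets had an adjusted p under 0.05, where 0.107% of all 7458 tested probe sets did, and 0 had an unadjusted p under 0.05, where 5.43% did. Their adjusted p ran from 0.98 to 1.00. With the replicate number as a block, 0 of the 8 passed the adjusted threshold, beside 0.536% of all. The median log2 fold change of the 8 was 0.04, with 4 higher and 4 lower in the deprived cortex, beside a median of 0.00 over all tested probe sets, of which 50.2% were higher. The groups of arrays did not overlap for 5 of the 8, where 32.2% of all tested probe sets showed no overlap. These 5 were Gad2, Slc32a1, both Pvalb probe sets and Dlx1. Gad2, counted here and among the 4 higher ones, passed the filter only through its deprived arrays. With the arrays scaled to a common median, 3 of the 8 did not overlap. An exact permutation test of 2 arrays against 2 cannot give a two-sided p under 0.333, which is the value these 5 reached. The difference between groups was larger than either difference within a group for 2 of the 8, Slc32a1 and the dimmer Pvalb probe set, where 20.5% of all tested probe sets met this. In tissue of mixed cells, fewer cells of a kind and less RNA per cell cannot be told apart.

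**Figure D1:**
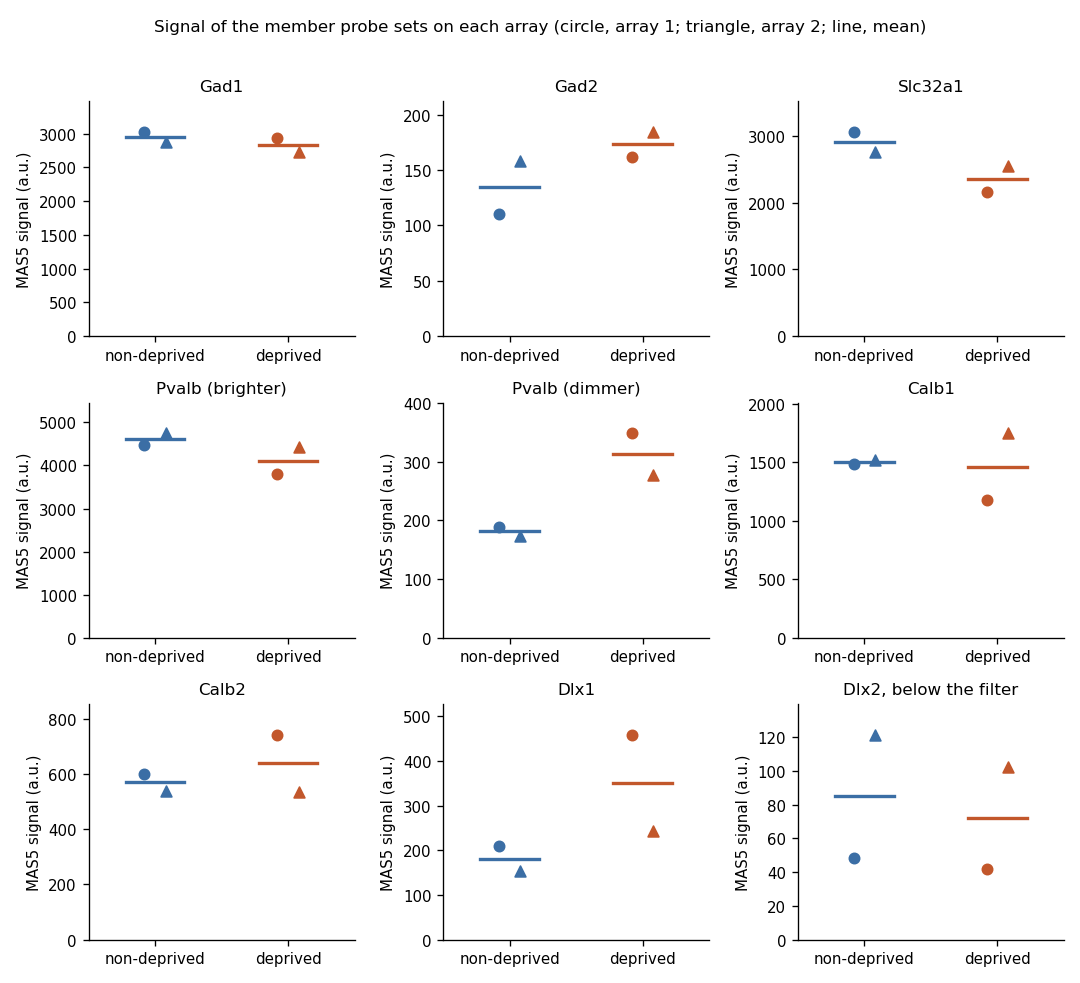
MAS5 signal in arbitrary units (y axes from 0, a separate scale per probe set) of the 9 member probe sets in non-deprived (blue) and deprived (orange) cortex, with circles for array 1, triangles for array 2 and lines for the mean of the 2 arrays. Gad1 lies between 2732 and 3030 on all arrays, the Slc32a1 signals of 2155 and 2556 in the deprived cortex lie under both non-deprived signals, and Calb1 spans 1178 to 1749 within the deprived group alone.

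Gad1 encodes the Gad enzyme that supplies most GABA in the brain, and its transcript is known from other work to follow neuronal activity. Its signal was 2928 and 2732 in the deprived cortex, against 3030 and 2882 in the non-deprived cortex. The groups overlapped, and the highest of the 4 signals was 1.11 times the lowest. The means were 2830 ± 139 for deprived and 2956 ± 105 for non-deprived tissue (SD, n = 2 arrays each), which gave -0.06 ± 0.16 (SE) on the log2 scale (adjusted p = 1.00) in limma. The 95% interval ran from -0.42 to 0.29, or from 0.749-fold to 1.23-fold. A change within that range could not be told from none with these arrays.

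Gad2 encodes the second Gad enzyme, which is bound to synaptic vesicles and found mainly in terminals. Its probe set was dim, at 161.6 and 184.6 in the deprived cortex, against 110.3 and 158.1 in the non-deprived cortex. Both deprived signals were above both non-deprived signals, but the lower deprived signal exceeded the higher non-deprived one by only 0.02 on the log2 scale. The mean over all arrays, 153.7, was just above the filter at 142.9, and the mean of the non-deprived arrays, 134.2, was under it, so Gad2 entered the test through its deprived arrays. The log2 fold change was 0.27 ± 0.52 (SE), with a 95% interval from -0.87 to 1.41 and an adjusted p of 1.00, and without non-deprived array 1 or 2 it was 0.09 or 0.45. Of the 8 tested probe sets this had the largest SE in limma, which draws each SE toward that of probe sets of like signal. The larger difference within a group was 0.36 for Gad2, under the 0.77 of Dlx1, on the log2 scale. The interval of Gad2 reached from 0.548-fold to 2.66-fold.

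Slc32a1 encodes the vesicular transporter that fills vesicles with GABA or glycine. Its signal was 2155 and 2556 in the deprived cortex, against 3067 and 2757 in the non-deprived cortex. Both deprived arrays were below both non-deprived arrays, and all 4 pairings of a deprived with a non-deprived array gave a lower deprived value, from -0.11 to -0.50 on the log2 scale. The means were 2355 ± 283 and 2912 ± 219 (SD, n = 2 arrays each), a deprived mean 0.809 times the non-deprived one. In limma the log2 fold change was -0.30 ± 0.17 (SE), with a 95% interval from -0.68 to 0.07, an unadjusted p of 0.10 and an adjusted p of 0.98. Without deprived array 1 the value was -0.18, and without deprived array 2 it was -0.42 (unadjusted p = 0.031, adjusted p = 0.32). Both deprived arrays also had the lower 5′ to 3′ ratios, so RNA integrity and deprivation cannot be told apart here. The part of RNA integrity in the Slc32a1 signal was not tested.

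Within each array the signal of Slc32a1 could be set against that of Gad1, a ratio chosen after the values were seen, which removes any factor that acts on both probe sets alike. The log2 ratio of the transporter to the enzyme was -0.43 and -0.09 in the deprived cortex, against 0.02 and -0.06 in the non-deprived cortex. Its mean difference between groups was -0.24, with no overlap but with deprived array 2 only 0.03 below non-deprived array 2. Deprived array 1 thus carried most of the difference, and the exact permutation p of 0.333 (two-sided) is the smallest that 4 arrays allow.

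The parvalbumin gene was read by 2 probe sets designed on the same sequence record, and they went opposite ways. The brighter had signals of 3800 and 4418 in the deprived cortex, against 4485 and 4746 in the non-deprived cortex. Both deprived signals were below both non-deprived ones, by 0.02 at the closest pair of arrays on the log2 scale. The means were 4109 ± 436 and 4615 ± 185 (SD, n = 2 arrays each), and the log2 fold change was -0.17 ± 0.17 (SE) with a 95% interval from -0.54 to 0.20 and an adjusted p of 1.00. Without deprived array 1 it was -0.06 and without deprived array 2 it was -0.28.

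The dimmer Pvalb probe set had signals of 348.3 and 276.5 in the deprived cortex, against 189.2 and 173.6 in the non-deprived cortex. Here both deprived arrays were above both non-deprived arrays, and the 4 pairs of arrays ran from 0.43 to 0.80 on the log2 scale. The log2 fold change was 0.62 ± 0.38 (SE), with an adjusted p of 0.99. The log2 ratio of the dimmer to the brighter probe set within an array, likewise chosen after the values were seen, was -3.24 and -3.73 in the deprived and -4.19 and -4.36 in the non-deprived cortex, a difference of 0.79 with no overlap (exact permutation p = 0.333, two-sided). As both probe sets name a single gene, no direction can be given for Pvalb. The suffix of the dimmer probe set is one that Affymetrix used for probes shared with similar sequences, and that of the brighter marks a set from which some probes were left out. Probe sequences were not used here.

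Parvalbumin is also abundant in skeletal muscle and in cerebellar Purkinje cells, so markers of both were set beside it. Of the 12 muscle genes 7 passed the filter, and their summed signal was 1861 and 1674 in the deprived cortex, against 2274 and 1417 in the non-deprived cortex, so that the groups overlapped. Of the 7, 5 were lower in the deprived cortex, among them the creatine kinase gene Ckm at -0.40 and the fast myosin light chain gene Mylpf at -0.54 on the log2 scale, and 2 were higher, the troponin gene Tnnc2 at 0.41 and the myosin light chain gene Myl1 at 0.35. Tnnc2, at 565.5 and 328.9 against 478.2 and 196.6, and Myl1 were highest on deprived array 1, as was the dimmer Pvalb probe set. The 5 muscle genes that were lower were all highest on non-deprived array 1, and no marker was at 0. Among all tested probe sets 31.9% were highest on deprived array 1 and 21.6% on non-deprived array 1. Of the cerebellar genes 5 were tested, with summed signals of 2323 and 1676 in the deprived cortex, against 1797 and 2476 in the non-deprived cortex, which also overlapped. By gene, 4 of the 5 were highest on deprived array 1, again beside 31.9% of all tested probe sets. Cbln1, which encodes a synaptic protein of cerebellar granule cells, had 760.6 and 518.5 in the deprived cortex, against 446.4 and 452.7 in the non-deprived cortex, without overlap. The Purkinje-cell gene Pcp2 was the exception, highest on non-deprived array 2 at 1200, against 348.9 to 437.9 on the other arrays. The part of such tissue in the Pvalb signals was not tested.

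Calbindin, encoded by Calb1, buffers calcium in some interneurons and also in many upper-layer pyramidal cells of the mouse cortex. Its signals were 1178 and 1749 in the deprived cortex, against 1487 and 1523 in the non-deprived cortex. The 2 deprived arrays were the lowest and the highest of the 4, on either side of non-deprived values that differed by 0.03 on the log2 scale. The log2 fold change was -0.06 ± 0.21 (SE), with a 95% interval from -0.51 to 0.38 and an adjusted p of 1.00. Without deprived array 1 it was 0.21 and without deprived array 2 it was -0.34, so a single array decides the sign.

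Calretinin, encoded by Calb2, marks a class of interneuron that mostly contacts other interneurons. Its signals were 742.5 and 537 in the deprived cortex, against 600 and 541.2 in the non-deprived cortex. Deprived array 1 was the highest and deprived array 2 the lowest, the reverse of Calb1. The median signals of the 4 arrays had the same order as the Calb2 signals. The part of the array medians in that order was not tested. The log2 fold change was 0.14 ± 0.24 (SE), with a 95% interval from -0.39 to 0.67 and an adjusted p of 1.00, and it was -0.08 without deprived array 1 and 0.35 without deprived array 2.

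The order of the arrays for Calb2 was set beside genes of the thalamus, which lies beneath the cortex and contains calretinin cells. At the brightest probe set of each gene, all 6 tested thalamic markers, of 8 on the array, were highest on deprived array 1. Of these 6, 5 were lowest on deprived array 2. Among all tested probe sets 31.9% were highest on deprived array 1 and 27.3% were lowest on deprived array 2. Prkcd, a protein kinase C gene strong in thalamic relay neurons, had 1132 on deprived array 1 and 530.8 to 630.5 on the others, but its second tested probe set had 402.9 and 395.6 in the deprived cortex, against 463.1 and 462.4 in the non-deprived cortex. The second probe set of Adarb1, an RNA-editing enzyme gene, was highest on deprived array 2, at 1077. The summed signal of the 6 was 4968 and 3306 in the deprived cortex, against 3702 and 3704 in the non-deprived cortex, and none was at 0. The 4 tested hippocampal genes summed to 1703 and 1193 in the deprived cortex, against 1418 and 1528 in the non-deprived cortex. By gene, 2 of these 4 were highest on deprived array 1 and 1 was lowest on deprived array 2, beside the same 31.9% and 27.3% of all. The part of neighbouring tissue in the Calb2 signal was not tested.

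**Figure D2:**
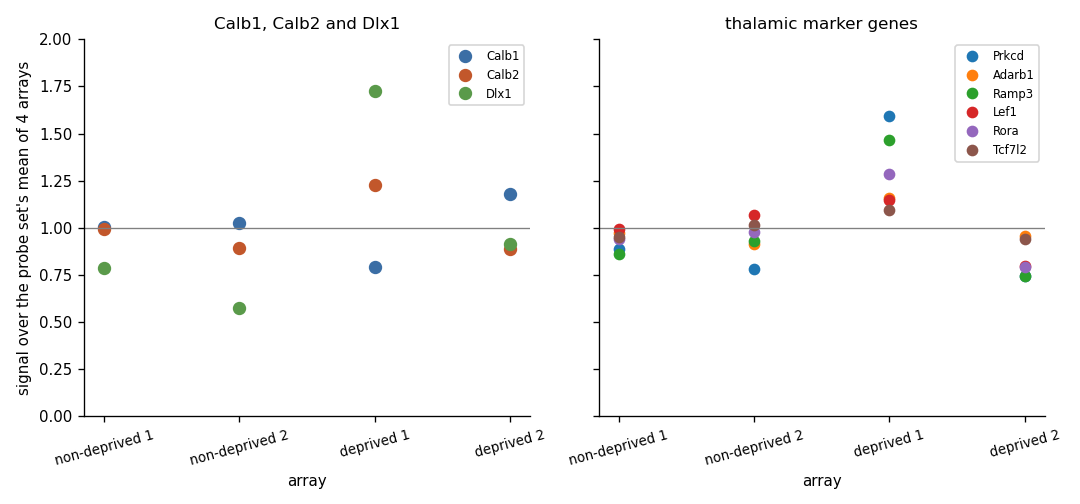
Signal of each probe set divided by its mean over the 4 arrays (y axis, no unit) on each array (x axis), for Calb1, Calb2 and Dlx1 on the left and for the 6 tested thalamic marker genes on the right. Calb2, Dlx1 and all 6 thalamic genes, each at its brightest probe set, are highest on deprived array 1, where Calb1 is lowest.

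Dlx1 showed the largest fold difference of the set. Its signals were 458.2 and 242.7 in the deprived cortex, against 209 and 153 in the non-deprived cortex. Both deprived arrays were above both non-deprived arrays, but the deprived arrays differed from each other by 0.77 on the log2 scale, more than the groups did. The means were 350.5 ± 152 and 181 ± 39.6 (SD, n = 2 arrays each), and the log2 fold change was 0.73 ± 0.41 (SE), or 1.65-fold, with a 95% interval from -0.17 to 1.62, an unadjusted p of 0.10 and an adjusted p of 0.98. It was 0.34 without deprived array 1 and 1.11 without deprived array 2 (unadjusted p = 0.016, adjusted p = 0.25). Without non-deprived array 1 or 2 it was 0.89 or 0.56.

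Dlx2 is the neighbour of Dlx1 on the chromosome, with only the antisense gene Dlx1as between them in the RefSeq annotation of GRCm38.p6. Its signals were 42 and 102.3 in the deprived cortex, against 48.6 and 121.2 in the non-deprived cortex, all under the filter at 142.9. The groups overlapped, and both array 2 signals were above both array 1 signals. With no filter the log2 fold change was -0.12 ± 0.50 (SE), at an adjusted p of 1.00, so these dim signals give no direction and no comparison with Dlx1. The striatum is rich in GABA neurons that make Gad1, Gad2 and Dlx genes. Its 4 tested markers, of 7 on the array, summed to 3412 and 3619 in the deprived cortex, against 3343 and 3312 in the non-deprived cortex, without overlap. At the brightest probe sets all 4 were higher in the deprived cortex, with a median log2 fold change of 0.10, but the arrays overlapped for each gene. A second probe set of the marker Foxp1 had 467.8 and 780.5 in the deprived cortex, against 276.1 and 451.1 in the non-deprived cortex. It gave 0.68 ± 0.31 (SE, log2) without overlap, where its brightest probe set gave 0.10. Of the 4 at their brightest probe sets, 1 was highest on deprived array 1 as Dlx1 was, the D2 dopamine receptor gene Drd2. Its signals were 411.4 and 132.3 in the deprived cortex, against 250.8 and 181.1 in the non-deprived cortex. Of the others 2 were highest on deprived array 2 and 1 on non-deprived array 1, and no striatal marker was at 0. Deprived array 1, deprived array 2 and non-deprived array 1 were highest for 31.9%, 24.4% and 21.6% of all tested probe sets. The part of striatal tissue in the Dlx1 signal was not tested.

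**Figure D3:**
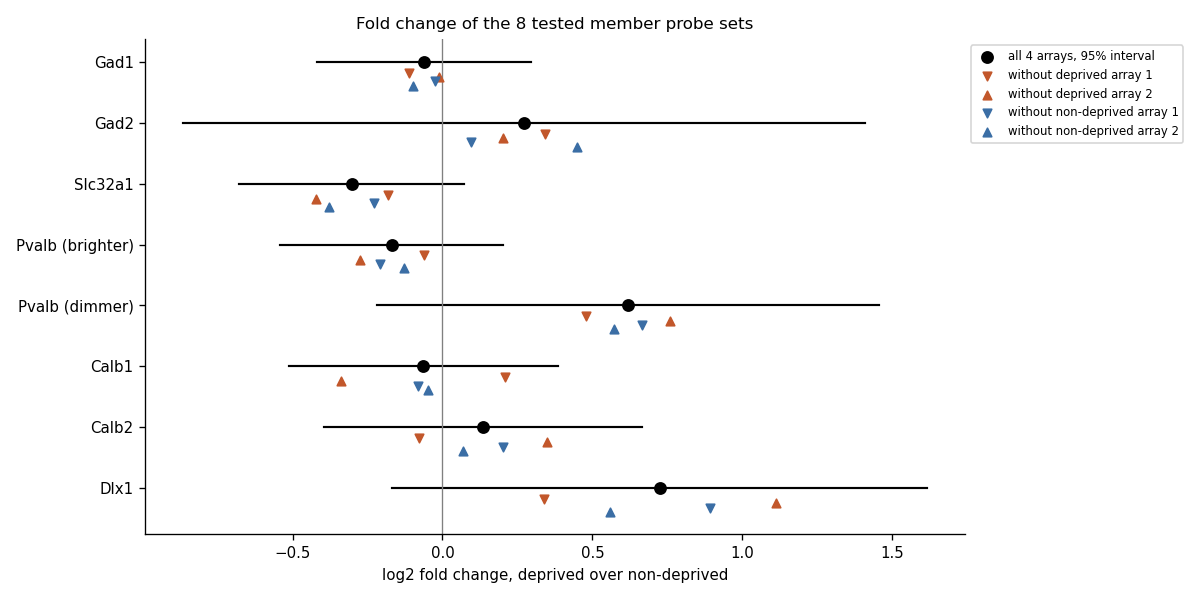
Log2 fold change of deprived over non-deprived cortex (x axis) for the 8 tested member probe sets, with all 4 arrays and the 95% interval of limma's fit in black and the value without each array as coloured triangles. All 8 intervals include 0, those of Gad1, Slc32a1 and the brighter Pvalb probe set are the narrowest, and the Calb1 and Calb2 values change sign without deprived array 1.

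The width of these intervals followed the brightness of the probe sets, but the fit draws each SE toward that of probe sets of like signal. The SE therefore cannot show whether the spread between arrays followed brightness too. The SE was 0.16 to 0.24 for Gad1, Slc32a1, the brighter Pvalb probe set, Calb1 and Calb2, and 0.38 to 0.52 for the dimmer Pvalb probe set, Dlx1 and Gad2. The larger difference within a group ran from 0.10 for Gad1 to 0.55 for Calb1 among the 5 brighter ones, on the log2 scale. Among the 3 dim ones it was 0.28 for Pvalb, 0.36 for Gad2 and 0.77 for Dlx1, so these ranges overlapped. Over all tested probe sets the median SE was 0.18 for mean signals over 2000 and 0.54 for those up to 200. The 3 dim probe sets had the 3 highest log2 fold changes of the set, while the 5 brighter ones had a median of -0.06. Over all tested probe sets 49.8% were higher for mean signals up to 200 and 49.4% for those from 200 to 500. The median absolute log2 fold change was 0.34 and 0.23 in these ranges, against 0.12 for mean signals over 2000. Gad2 entered the test through its deprived arrays. The part of low signal in the 3 fold changes was not tested. Deprived array 1 was the highest or the lowest array for 6 of the 8 tested member probe sets. It held either end for 60.9% of all tested probe sets, the largest share of the 4 arrays.

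Among the members themselves, the array profiles of Slc32a1 and the brighter Pvalb probe set were the most alike. After each probe set was centred on its own mean, their log2 signals differed by at most 0.18 on any array. Over all named and tested probe sets, the profiles nearest to that of Gad1 were those of Psmd13, a proteasome subunit gene, Tmem134 and the calpain gene Capn5, within 0.01 to 0.02 on every array. Those nearest to the brighter Pvalb probe set were Csnk1g2, a casein kinase gene, Fmc1 and Gpx4, a glutathione peroxidase gene, with largest differences of 0.021, 0.022 and 0.024. Of 6708 named and tested probe sets, 228 lay within 0.1 of Gad1 and 183 within 0.1 of the brighter Pvalb probe set. These 183 were nearer to that Pvalb probe set than Slc32a1 was.

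The genes that supply, take up and break down GABA were described by a list of 16, of which 9 were on the array under their own name alone and 7 were tested. In limma 0 passed the adjusted threshold and 1 was lower at an unadjusted p under 0.05, with a median log2 fold change of 0.01, 4 higher and 3 lower. Slc6a6, a taurine transporter that belongs to the GABA transporter family, had 1079 and 1694 in the deprived cortex, against 1994 and 2199 in the non-deprived cortex. Its groups did not overlap, and its log2 fold change was -0.61 ± 0.21 (SE), at an adjusted p of 0.66. A second, dim probe set of Slc6a6 gave 0.03 ± 0.48. Pdxk, which makes the vitamin B6 cofactor that both Gad enzymes need, had 4655 and 4979 in the deprived cortex, against 3868 and 3982 in the non-deprived cortex, which gave 0.29 ± 0.16 on the log2 scale (adjusted p = 0.98). The glutamine transporter gene Slc38a2 gave 0.29 ± 0.27 and the neuronal glutamate transporter gene Slc1a1 0.27 ± 0.32. For Abat, the GABA transaminase, no probe set carried the name alone.

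On the receiving side 11 of 22 listed genes were tested, with a median log2 fold change of 0.13, 7 higher and 4 lower, and 0 past the adjusted threshold. At an unadjusted p under 0.05, 1 was higher and 1 lower. Gabrd, the delta subunit gene of GABA-A receptors, gave 1.23 ± 0.36 (SE) with an adjusted p of 0.49. Slc12a5, which encodes the chloride exporter that makes GABA inhibitory in mature neurons, had 389.1 and 208.4 in the deprived cortex, against 558.4 and 573.8 in the non-deprived cortex, which gave -0.85 ± 0.31 on the log2 scale (adjusted p = 0.71). Slc12a2, its chloride-importing counterpart, gave 0.20 ± 0.18. The receptor subunit genes Gabrb2 and Gabrb1 gave -0.78 ± 0.42 and 0.24 ± 0.17.

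Of 41 further genes listed for kinds of interneuron, 21 were tested. Their median log2 fold change was 0.03, with 11 higher and 10 lower. In limma 0 passed the adjusted threshold and 1 was lower at an unadjusted p under 0.05. That was Vip, a peptide gene of interneurons that inhibit other interneurons, with 80.4 and 88.5 in the deprived cortex, against 313.4 and 230.4 in the non-deprived cortex. Its log2 fold change was -1.19 ± 0.51 (SE), at an adjusted p of 0.89, and as its deprived signals lay below the filter it entered the test through its non-deprived arrays. Htr3a, the serotonin receptor gene that marks the wider class to which Vip cells belong, had 307.8 and 89 in the deprived cortex, against 332.7 and 329.3 in the non-deprived cortex, which gave -0.74 ± 0.46 on the log2 scale (adjusted p = 0.99). Satb1, a factor needed for parvalbumin and somatostatin cells to mature in mice, had 1510 and 2070 in the deprived cortex, against 1380 and 1265 in the non-deprived cortex, which gave 0.40 ± 0.19 on the log2 scale (adjusted p = 0.92). Lhx6, which specifies those same cells, gave 0.32 ± 0.26.

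The peptide genes Sst, Npy, Cck and Cort of the interneuron list gave -0.20 ± 0.21, -0.29 ± 0.20, -0.18 ± 0.22 and -0.50 ± 0.33 (SE, log2). A change in tissue of mixed cells cannot be assigned to interneurons from these values. Cort was low on deprived array 1 alone, at 256.3 against 564.8 to 576.6 on the other arrays. The peptide genes Penk and Tac1 of the same list gave 0.18 ± 0.19 and 0.06 ± 0.49. A dimmer Penk probe set gave -0.18 ± 0.32, so no direction can be given for Penk. None passed the adjusted threshold.

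Other calcium-binding proteins of the EF-hand family, to which parvalbumin, calbindin and calretinin belong, were tested for 16 of 31 listed genes. Their median log2 fold change was -0.07, with 12 lower and 4 higher, 0 past the adjusted threshold and 1 lower at an unadjusted p under 0.05. Vsnl1, the calcium sensor gene visinin-like 1, had 7171 and 9061 in the deprived cortex, against 10492 and 11930 in the non-deprived cortex, which gave -0.47 ± 0.20 (SE) on the log2 scale (adjusted p = 0.89). Calm2, a calmodulin gene, gave -0.47 ± 0.33, and the hippocalcin family genes Hpcal4 and Hpcal1 gave -0.28 ± 0.27 and -0.15 ± 0.18. Deprived array 1 was the lowest array for 10 of these 16 genes, and for 29.0% of all tested probe sets.

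The excitatory-neuron genes had a median of -0.11 over 10 tested, with 6 lower and 4 higher and 0 past the adjusted threshold, and 2 were lower at an unadjusted p under 0.05. These were Grin2b, an NMDA receptor subunit gene, at -1.51 ± 0.49 (SE), and Camk2a, a synaptic kinase gene, at -0.62 ± 0.21, with adjusted p of 0.55 and 0.59. A dimmer Camk2a probe set gave -1.74 ± 0.43, with an adjusted p of 0.29, and of 0.032 with the replicate number as a block. Grin2b too had both deprived signals, 91.7 and 70.2, below the filter. Fezf2 and Neurod2, transcription factor genes of these neurons, gave -0.39 ± 0.25 and -0.24 ± 0.17. For Slc17a7, the main cortical glutamate transporter of vesicles, no probe set carried the name alone.

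**Figure D4:**
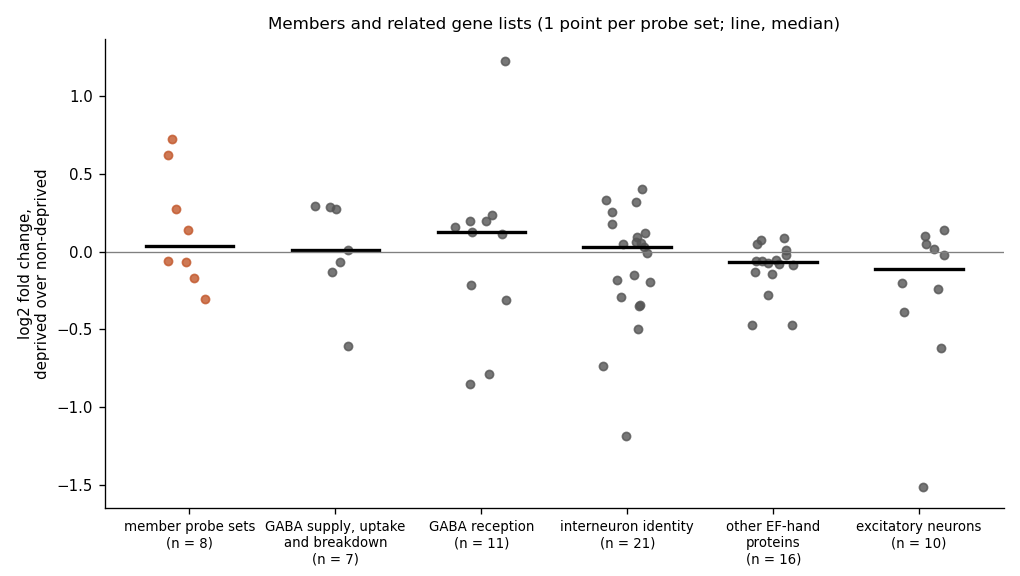
Log2 fold change of deprived over non-deprived cortex (y axis) for the 8 tested member probe sets (orange) and for the brightest tested probe set of each gene in 5 related lists (grey), with black lines at the medians. The medians lie between -0.11 for excitatory-neuron genes and 0.13 for GABA reception, and single genes reach from -1.51 for Grin2b to 1.23 for Gabrd.

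The lists for glia and vessels also had 0 genes past the adjusted threshold. Their medians were -0.05 over 7 astrocyte genes, 0.10 over 8 oligodendrocyte genes, -0.04 over 6 microglial genes and 0.05 over 4 endothelial genes. At an unadjusted p under 0.05 there was 1 astrocyte gene lower, the glutamate transporter gene Slc1a2 with 361.9 and 178 in the deprived cortex, against 570.2 and 576.4 in the non-deprived cortex. There was also 1 oligodendrocyte gene higher, the myelin gene Mobp, at its brightest probe set, with 0.47 ± 0.17 (SE, log2). Their adjusted p in limma were 0.58 and 0.69. The other 3 tested Mobp probe sets gave -0.59, -0.64 and -0.14, so no direction can be given for Mobp.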

How the data were processed

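RNA of 4 pooled visual cortex samples was hybridised to Affymetrix arrays, 1 colour each. The authors deposited MAS5 signals, per the submitters' processing notes, which are linear intensities with a single value for every probe set. The sources used here do not give MAS5's version, detection calls or scaling target. The platform annotation gave the gene symbols, updated through Entrez identifiers in a RefSeq table, which matched all 9 member probe sets.

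Each array was scaled to a common 2% trimmed mean (about 500.3 on each array as deposited), 60.6 (the 20th percentile of mean signals) was added, and log2 was taken, so fold changes of dim probe sets are understated. The 66 controls and probe sets with a mean below the 40th percentile, 142.9, were left out, which kept 7458. limma 3.58.1 in R 4.3.3 (lmFit, eBayes with a mean-variance trend) compared the groups, two-sided, with Benjamini-Hochberg adjustment over all 7458 and a threshold of 0.05. The fit was tested on simulated arrays with known changes in some probe sets. Signals in the text are as deposited. Each gene of a list was represented by its brightest tested probe set.

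The design text names cross-animal comparisons as additional, from which equal replicate numbers were read as shared animals. Over probe sets, the departures from the group mean correlated at r = 0.27 between arrays of equal number. A fit with the number as a block was an alternative, beside other scalings, pseudocounts and filters, a fit without the trend, and each array left out.

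The members, the lists and the tests were chosen with earlier results of these data known. Named genes were every member, up to 4 genes with the smallest p of each related list, 9 genes fixed by name and the nearest profiles of Gad1 and Pvalb. From the lists of neighbouring tissues, Prkcd, Adarb1, Pcp2, Cbln1, Drd2, Foxp1, Ckm, Mylpf, Tnnc2 and Myl1 were named. Slc12a2, Lhx6, Cort, Penk, Tac1, Nrgn and Tbr1 were added. Some of all these genes lay outside that rule and were named after their values were seen.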

Additional observations from a re-analysis of the deposited data

How the results depend on the processing

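No member probe set passed the adjusted threshold in limma under any of the 14 alternatives, with or without the replicate block, and the lowest adjusted p of a member was 0.25, for Dlx1 without deprived array 2. The filters, the fit without the trend and the replicate block cannot change a member's fold change, so its sign there was fixed in advance. With these fixed values counted in, 99 of 102 values of single members kept their sign. The exceptions were Calb1 at 0.209 and Calb2 at -0.0774 without deprived array 1, which with each array left out in turn ran from -0.338 to 0.209 and from -0.0774 to 0.349, and Pvalb at 0.225 with its probe sets averaged, against -0.17 at the brighter alone. The count of 8 probe sets past the threshold on the whole array became 3 with a common median, 1 after quantile normalization, 0 without the variance trend (390 at an unadjusted p under 0.05, among them the dimmer Pvalb probe set at 0.038) and 40 with the replicate block, where the lowest member value was an adjusted p of 0.57. With 1 array left out it ran from 5 to 90, in fits where a lone array is taken to vary as the other group does. The member median of 0.04 became -0.0619 without a filter, with Dlx2 included, -0.0648 with a filter at the 60th percentile, which keeps 5 members, and 0.14 with probe sets averaged. It ran from 0.0101 to 0.0940 with 1 array left out. Members without overlap numbered 3 with a common median and 2 with the stricter filter, and 5 to 8 with 1 array left out, where fewer pairs had to agree. Apart from what each rule implies, the cause was not tested. Low signal limits Gad2, Dlx1, Dlx2 and the dimmer Pvalb probe set most.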
